A study of Homo sapiens with 12 samples.

Results

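Cells given JQ1 together with cardamonin (Combination, 3 libraries) were set against cells given cardamonin alone (CAR, 3 libraries), which makes 6 of the 12 libraries of the series. The groups were taken from the sample titles and treatment labels. All cells were MDA-MB-231, an established human breast cancer line of the triple-negative kind, labelled wild type. Cells of the CAR group were given cardamonin, named in the series title and shortened to CAR in the labels, at 10 µmol/L. The Combination group is labelled with both agents, CAR at 10 µmol/L and JQ1 at 25 µmol/L, so cardamonin is common to both groups and JQ1 is what differs. The other 6 libraries, 3 given DMSO and 3 given JQ1 at 25 µmol/L without cardamonin, were used for 1 further question: whether the change with JQ1 differed in the absence of cardamonin. The duration of treatment and the order of the 2 agents are not stated in the labels. Poly(A) RNA was sequenced, and counts per gene were listed for 16384 genes, of which 12645 passed an expression filter and were tested.

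JQ1 is a small molecule that occupies the acetyl-lysine pocket of the BET bromodomain proteins, BRD2 and BRD3 among them, and displaces them from acetylated chromatin. BET proteins recruit the kinase P-TEFb, which releases paused RNA polymerase II into elongation, and HEXIM1, an inhibitor of P-TEFb, is a widely used marker of BET inhibition because its transcript rises when these proteins are displaced. Genes of the cell cycle and of inflammation are often among those that depend on BET proteins. Cardamonin is a plant chalcone, found in the ginger family, with an electrophilic enone, a feature of many compounds that release the transcription factor NRF2 from KEAP1 and so raise antioxidant genes.

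The CAR libraries held 19754456, 19052492 and 18768318 counts and the Combination libraries 18245928, 18689492 and 18312778. Levels are given as CPM, in which counts are set against the library total multiplied by its TMM scaling factor, and 3 counts, taken as the floor of detection, corresponded to 0.148 to 0.177 CPM in these 6 libraries. Combination replicate 1 stood apart in transcripts typical of liver: it held 1429 counts of ALB, the serum albumin gene, where the other 11 libraries held 4 to 10. The summed level of the 20 liver genes was 1.59 to 2.87 CPM in CAR, 211 CPM in Combination replicate 1 and 12.2 and 10.0 CPM in replicates 2 and 3, where CYP2E1 made up most of the sum. Only 3 of the 20 passed the filter. Of the markers of leukocytes, endothelium and fibroblasts, 16 could be read and their sum was 225 to 232 CPM in CAR and 199 to 217 CPM in Combination, most of it CD68. Of the 6 tested, 2 were higher and 2 lower in Combination. PDGFRB, a member of that list, was at 14.9, 14.2 and 13.4 CPM in CAR and 40.8, 40.3 and 39.7 CPM in Combination. All 12 genes taken as typical of MDA-MB-231, such as VIM, CD44, AXL and EGFR, were present in every library. ESR1 and PGR, the hormone receptors that the line lacks, did not pass the filter. They belong to a list of 10 luminal and receptor genes, of which 5 were tested. That list summed to 265 to 270 CPM in CAR and 241 to 246 CPM in Combination. Its receptor gene ERBB2 was present, at 102, 100 and 96.7 CPM in CAR and 143, 145 and 145 CPM in Combination. Nothing in the labels says that replicates came from separate cultures, so the p-values cover the spread among these libraries alone, which may be technical.

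Adding JQ1 changed most of the genes that could be tested. Of 12645 genes, 5361 (42.4%) were higher in Combination and 5439 (43%) lower at a Benjamini-Hochberg adjusted p under 0.05 by edgeR's quasi-likelihood test, and 1845 were not called. At least 2-fold changes were called in 1970 genes upward (15.6%) and 2518 downward (19.9%). Changes of at least 8-fold fell mostly on the downward side, with 478 genes lower and 199 higher. The median log2 fold change was -0.01 and the median of its absolute value 0.70. In 5496 genes every Combination library was above every CAR library, and in 5562 every one was below, together 87.4% of the genes tested. With so many genes called, a count of members called is read against these percentages below. Without Combination replicate 1, 10499 of the 10800 calls remained, 301 were lost, 0 changed direction, and 58 genes moved by more than 1.5-fold. Counts give each gene's part of a library and not the RNA content of a cell, so in these bulk samples fewer cells of a kind and less RNA per cell cannot be told apart. Scaling to the total count in place of TMM shifted the median of all genes by -0.14 on the log2 scale, and values smaller than this depend on the scaling.

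**Figure D1:**
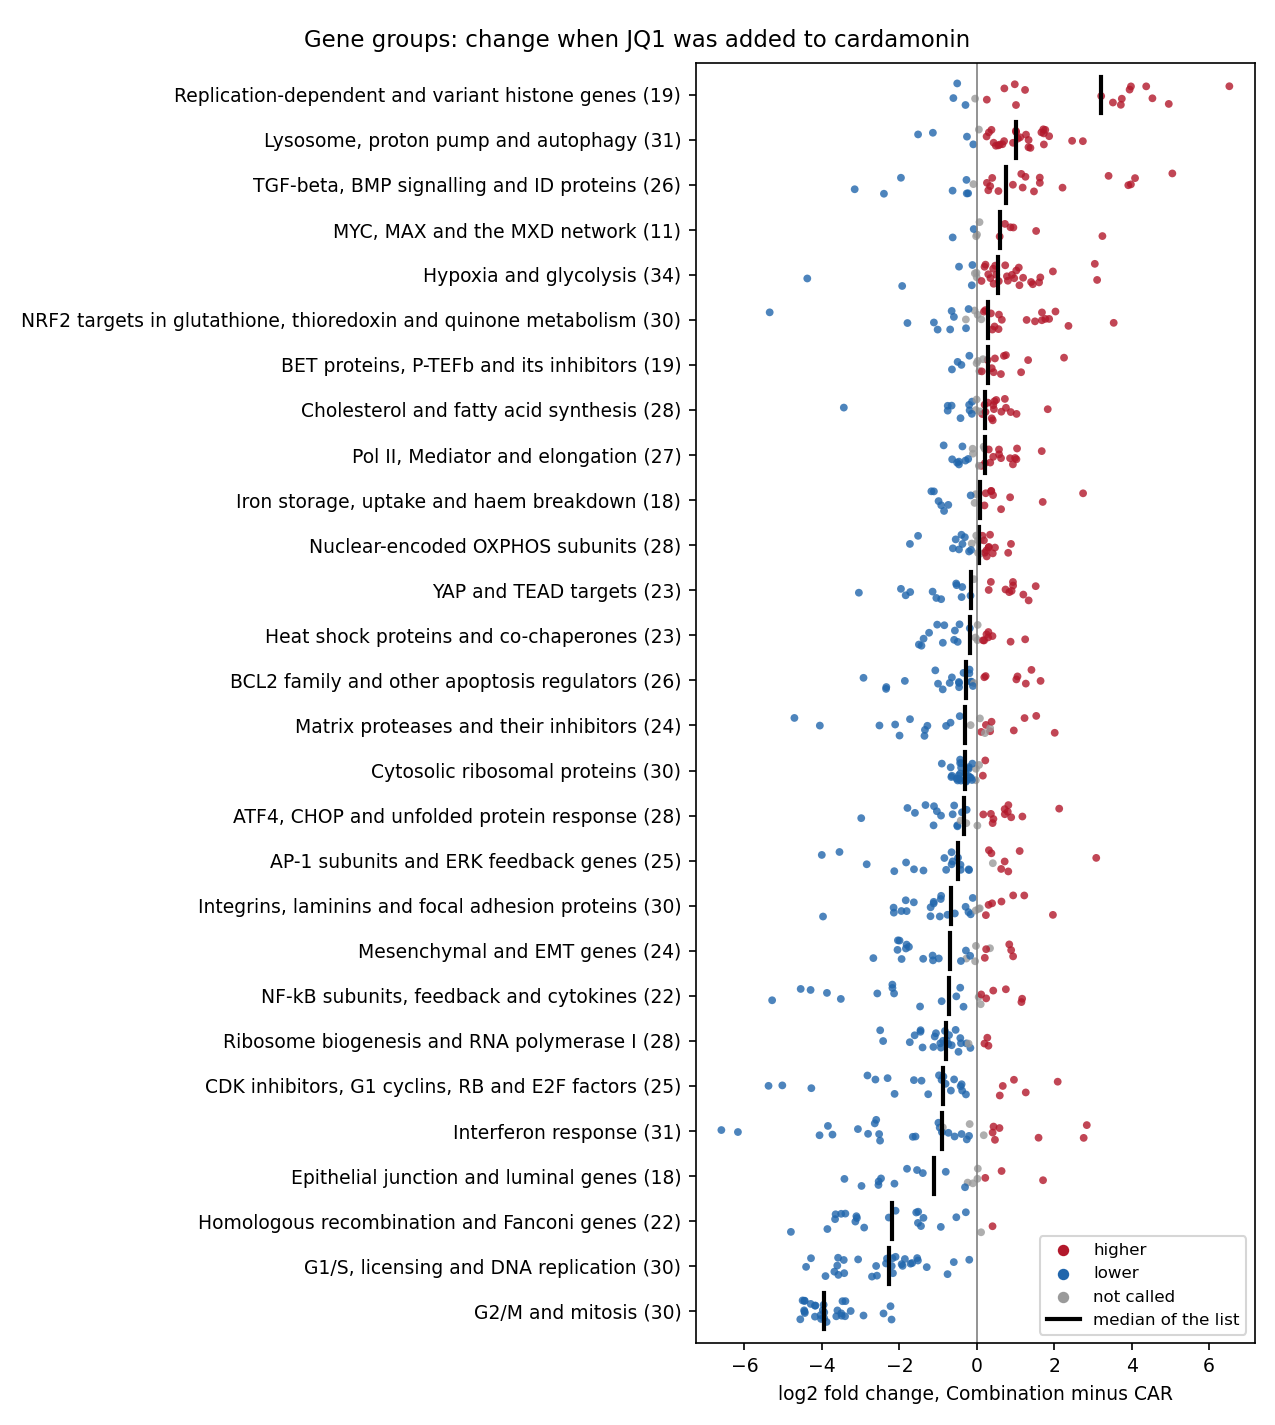
Each point is 1 tested gene of a list, placed by its log2 fold change of Combination minus CAR (horizontal axis), with lists ordered by their median (black bar) and the number of tested members in brackets. Red and blue points were called higher and lower at an adjusted p under 0.05. The mitosis list lies lowest, with a median of -3.95, and the histone list highest, with a median of 3.21.

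Transcripts of BET proteins and of the elongation machinery moved in both directions. HEXIM1 was at 111, 108 and 108 CPM in the CAR libraries and 534, 514 and 512 CPM in the Combination libraries (log2 fold change 2.25 ± 0.042, edgeR quasi-likelihood, Benjamini-Hochberg adjusted p = 1.27e-21). The 2 groups were far apart at HEXIM1, with every Combination library over 4 times the level of any CAR library. BRD2 was at 429.7, 421 and 419 CPM in the CAR libraries and 1065, 1066 and 1052 CPM in the Combination libraries (log2 fold change 1.33 ± 0.032, edgeR quasi-likelihood, Benjamini-Hochberg adjusted p = 8.93e-20). BRD3 had overlapping levels of 44.9, 45.3 and 45.7 and 46.1, 44.9 and 47.2 CPM and was not called, with a log2 fold change of 0.02 ± 0.052. SUPT5H, a subunit of the pausing factor DSIF, rose from 192 to 424 CPM (1.14 ± 0.040), and CDK13, a kinase of the polymerase tail, by 0.62 ± 0.050. Of the 19 genes of BET proteins, P-TEFb and its inhibitors, 11 were higher and 4 lower, with a median of 0.28. Those lower were HEXIM2, LARP7, CCNT2 and CDK9, each by less than 1 on the log2 scale. LARP7, which holds the 7SK particle that stores inactive P-TEFb, changed by -0.49 ± 0.074, and CCNT2, a cyclin partner of CDK9, by -0.40 ± 0.067. Among 27 genes of RNA polymerase II, Mediator and elongation, 14 were higher and 8 lower. Over all genes tested, 42.4% were higher and 43% lower. The median of these 27 was 0.20, or 0.06 with total count scaling. POLR2A, the largest subunit of the polymerase, was at 364, 332 and 338 CPM in the CAR libraries and 1091, 1115 and 1099 CPM in the Combination libraries (log2 fold change 1.68 ± 0.060, edgeR quasi-likelihood, Benjamini-Hochberg adjusted p = 1.44e-14). TAF7, POLR2L and SUPT6H rose by 0.99, 1.02 and 0.86, while GTF2H1 and SUPT16H changed by -0.46 and -0.29.

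**Figure D2:**
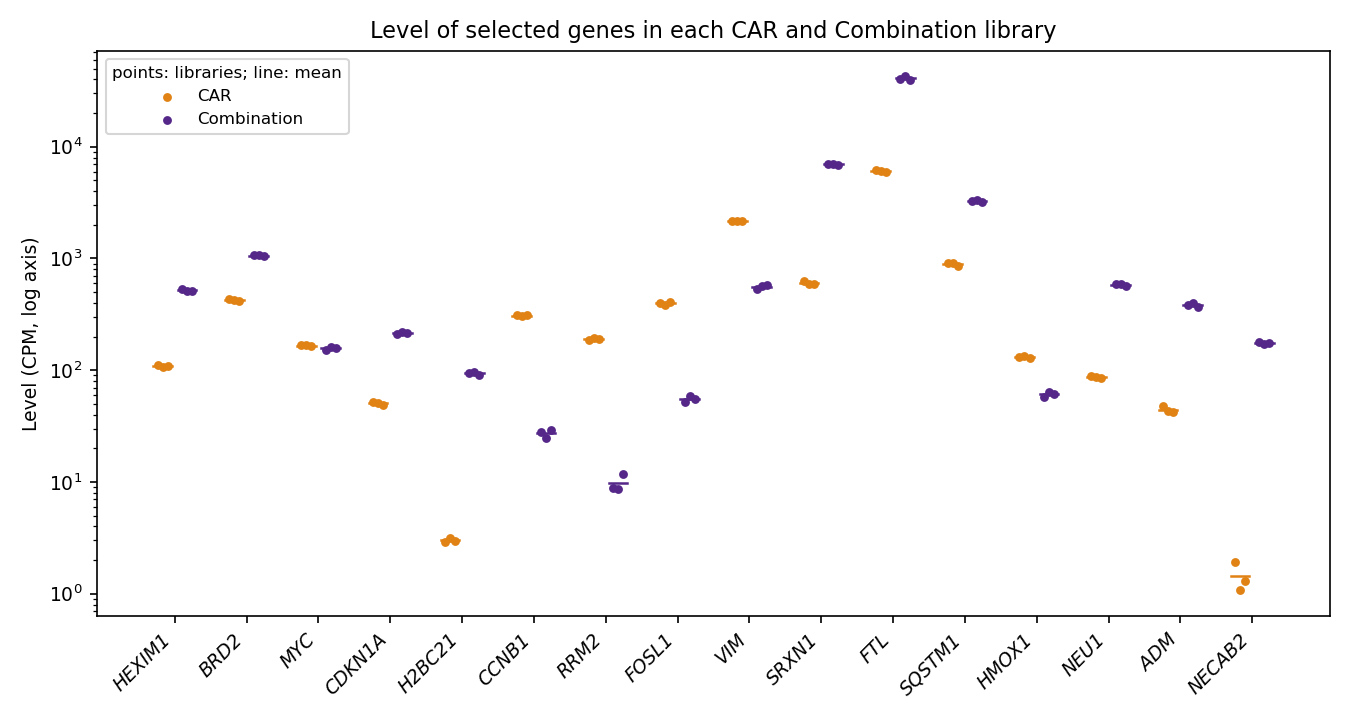
Level of 16 genes in CPM (vertical log axis) in each of the 3 CAR (orange) and 3 Combination (purple) libraries, with a line at the mean of each group. The libraries of a group lie close together, and the 2 groups are apart at every gene shown, least at MYC and most at NECAB2.

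MYC itself hardly moved. It was at 167, 168 and 164 CPM in the CAR libraries and 152, 162 and 157 CPM in the Combination libraries, and its log2 fold change of -0.08 ± 0.037 lay at the threshold (Benjamini-Hochberg adjusted p = 0.0495, edgeR quasi-likelihood). The call was lost in 11 of the alternatives tried, and without Combination replicate 1 the log2 fold change was -0.06 (edgeR adjusted p = 0.202). The genes that compete with MYC for its partner MAX did change: MXD4 went from 28.7, 24.7 and 25.2 CPM in CAR to 247, 247 and 251 CPM in Combination (log2 fold change 3.24 ± 0.051, edgeR quasi-likelihood, Benjamini-Hochberg adjusted p = 2.51e-22), and MXI1 and MXD1 rose by 0.94 and 0.87. Of the 11 tested members of this network, 6 were higher and 2 lower, the lower ones being MYC and MLX (-0.62 ± 0.038). Most genes of ribosome biogenesis, a textbook output of MYC, were lower. Of 28 such genes, 3 were higher and 24 lower, with a median of -0.80 and 10 lower by at least 2-fold. The E-box letters CACGTG were present in 2 of the 22 members with a RefSeq promoter sequence (9.09%), against 8.88% of the 10253 tested genes with one, both strands of the 250 bases before the start being searched. TCOF1, which supports transcription of ribosomal DNA, fell from 165 to 29.2 CPM (-2.49 ± 0.046). The processing factors UTP4, MYBBP1A and WDR43 fell by 1.73, 1.45 and 1.45. The 3 that rose, UBTF (0.30), POLR1C (0.27) and RRN3 (0.20), code for parts of the RNA polymerase I apparatus. The ribosomal proteins themselves moved little: of 30, 2 were higher and 25 lower, none by 2-fold, with a median of -0.30. RPL3 was at 983, 1007 and 961 CPM in the CAR libraries and 607, 626 and 638 CPM in the Combination libraries (-0.66 ± 0.038). RPL13 and RPLP1 were the 2 called higher; neither was called with total count scaling, and lost as well was that of RPLP1 without CAR replicate 3 (edgeR adjusted p = 0.0925).

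The largest coordinated fall was in genes of cell division. All 30 tested genes of the G2 phase and mitosis were lower, each by at least 2-fold, with a median log2 fold change of -3.95 and a range from -4.56 (AURKB) to -2.20 (ECT2). CCNB1, the cyclin that drives entry into mitosis with CDK1, was at 309, 305 and 311 CPM in the CAR libraries and 28.1, 24.6 and 29 CPM in the Combination libraries (log2 fold change -3.50 ± 0.056, edgeR quasi-likelihood, Benjamini-Hochberg adjusted p = 2.87e-22). DLGAP5, a spindle protein, went from 162, 161 and 172 CPM to 10.8, 9.71 and 11.8 CPM (-3.94 ± 0.063). The checkpoint genes BUB1 and MAD2L1 fell by 2.92 and 3.40. MKI67, the proliferation marker Ki-67, was at 1042, 1049 and 1085 CPM in the CAR libraries and 55.1, 52.7 and 73.4 CPM in the Combination libraries (log2 fold change -4.13 ± 0.16, edgeR quasi-likelihood, Benjamini-Hochberg adjusted p = 6.08e-09). Combination replicate 3 was the highest of its group at MKI67 but still over 10 times below any CAR library.

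Promoters of this group are shown because the members moved together and share short motifs. The 250 bases before the RefSeq start (GRCh38.p14) were searched on both strands. CCAAT was present in 18 of the 25 mitosis genes with a promoter sequence (72.0%), against 35.1% of the 10253 tested genes with one. TTTGAA, the letters of the cell cycle homology element, was present in 12 of 25 (48.0%) against 8.36%. Both were present in 10 of 25 (40%) against 3.44%. Matches of the 2 motifs can overlap by 1 base at most, and a match describes the sequence, not a bound site. The capitals below mark CCAAT and TTTGAA or their reverse complements, in 3 genes that fell by 3.94, 4.18 and 3.98 on the log2 scale (KIF23 is a kinesin of the midbody and CCNB2 a mitotic cyclin), each read 5′ to 3′ towards the start.
DLGAP5 (chr14:55191586-55191835, minus strand): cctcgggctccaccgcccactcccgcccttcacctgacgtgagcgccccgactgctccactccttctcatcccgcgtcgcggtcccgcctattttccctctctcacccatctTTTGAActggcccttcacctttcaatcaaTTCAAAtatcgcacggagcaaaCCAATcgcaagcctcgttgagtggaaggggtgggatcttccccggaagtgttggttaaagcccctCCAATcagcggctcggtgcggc
KIF23 (chr15:69414099-69414348, plus strand): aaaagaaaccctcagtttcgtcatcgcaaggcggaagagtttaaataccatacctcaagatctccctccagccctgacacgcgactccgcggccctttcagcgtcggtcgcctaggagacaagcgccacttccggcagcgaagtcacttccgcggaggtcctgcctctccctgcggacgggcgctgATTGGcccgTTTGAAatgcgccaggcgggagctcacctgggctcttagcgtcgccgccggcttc
CCNB2 (chr15:59104896-59105145, plus strand): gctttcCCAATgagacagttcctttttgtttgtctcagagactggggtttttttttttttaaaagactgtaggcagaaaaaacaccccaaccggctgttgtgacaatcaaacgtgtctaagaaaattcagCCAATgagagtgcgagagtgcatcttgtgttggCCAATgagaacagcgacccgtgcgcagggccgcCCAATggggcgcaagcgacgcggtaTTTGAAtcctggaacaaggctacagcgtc

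Genes of S phase were lower too, over a wider range than the mitotic genes. All 30 tested genes of the G1/S transition, licensing and replication were lower, 27 by at least 2-fold, with a median of -2.26 and a range from -4.41 to -0.19. RRM2, a subunit of ribonucleotide reductase, was at 187, 193 and 189.7 CPM in the CAR libraries and 8.74, 8.66 and 11.9 CPM in the Combination libraries (log2 fold change -4.28 ± 0.070, edgeR quasi-likelihood, Benjamini-Hochberg adjusted p = 3.89e-22). TYMS, which makes thymidylate, fell by 3.58 and its level from 329 to 27.5 CPM. MCM3, a subunit of the replicative helicase, fell from 432 to 95.7 CPM (-2.18 ± 0.036). The letters TTTCCCGC, TTTGGCGC or TTTCGCGC, forms of the site bound by E2F factors, were present in 12 of 26 promoters of this list (46.2%) against 3.99% of all. Homologous recombination and Fanconi genes followed: of 22, 20 were lower, 17 by at least 2-fold, and the median was -2.18. FANCD2, a central Fanconi protein, fell from 57.8 to 3.98 CPM (-3.86 ± 0.077), and the checkpoint kinase CHEK1 from 105 to 12.2 CPM (-3.10 ± 0.059). The only member called higher was the kinase ATM (0.41 ± 0.13), and that call was lost with total count scaling.

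Most regulators of entry into S phase were lower. Among 25 CDK inhibitors, G1 cyclins, RB and E2F factors, 5 were higher and 20 lower, with a median of -0.86. Those that fell included the transcription factors MYBL2, from 77.1 to 3.98 CPM (-4.27 ± 0.081), E2F3, from 91.7 to 14.9 CPM (-2.62 ± 0.062) and FOXM1, from 299 to 68.7 CPM (-2.12 ± 0.043). E2F2 held 590 counts over the CAR libraries and 12 over the Combination libraries, a scaled ratio of 42.7 (exact 95% counting interval 24.3 to 83.2), and its log2 fold change was -5.38 with all libraries and -6.34 without Combination replicate 3. CDKN1A, the CDK inhibitor p21, was at 51.8, 50.5 and 49.1 CPM in the CAR libraries and 209.6, 221 and 214 CPM in the Combination libraries (log2 fold change 2.09 ± 0.041, edgeR quasi-likelihood, Benjamini-Hochberg adjusted p = 2.64e-21). The other inhibitors that rose were CDKN2D (1.26), CDKN1B (0.67) and CDKN1C (0.59). Of the D cyclins, CCND3 rose from 195 to 378 CPM (0.96 ± 0.038) and CCND2 and CCND1 fell, CCND2 by 0.98 and CCND1 from 517 to 394 CPM (-0.39 ± 0.033). Apoptosis regulators were divided: of 26, 7 were higher and 18 lower. BCL2 and BCL2L1, which restrain cell death, fell by 2.34 and 1.0, BCL2L11 (BIM) and CASP9, which promote it, rose by 1.02 and 1.65, and BID and the death receptor TNFRSF10A, also on the promoting side, fell by 2.34 and 1.86. Without Combination replicate 1, 15 members of this list were called lower in place of 18.

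Histone genes went against the rest of the S phase programme. Of 19 tested, 15 were higher and 3 lower, 12 of them higher by at least 2-fold, with a median of 3.21. H2BC21 was at 2.92, 3.13 and 2.97 CPM in the CAR libraries and 93.5, 95.6 and 91.5 CPM in the Combination libraries (log2 fold change 4.96 ± 0.085, edgeR quasi-likelihood, Benjamini-Hochberg adjusted p = 5.51e-22). H2BC5 went from 16.6, 16.9 and 18.3 CPM to 264, 275 and 259.6 CPM (3.95 ± 0.054), and H2BC4 and H2AC6 rose by 3.74 and 3.21. The 3 lower members, H2AZ1 (-0.60), H2AZ2 (-0.51) and H3-3B (-0.29), are variant histones whose mRNA is polyadenylated. The libraries were made from poly(A) RNA, most replication-dependent histone mRNA carries no poly(A) tail, and reads of near-identical histone copies may be split or dropped, so these levels are of the polyadenylated part and are uncertain between copies. Of 18 histone promoters, 12 (66.7%) held TATAAA on either strand, against 5.29% of all. The promoter of H2BC21, one of the 12 largest rises named, is shown with TATAAA and CCAAT or their reverse complements in capitals (RefSeq, GRCh38.p14, 250 bases before the start).
H2BC21 (chr1:149886683-149886932, minus strand): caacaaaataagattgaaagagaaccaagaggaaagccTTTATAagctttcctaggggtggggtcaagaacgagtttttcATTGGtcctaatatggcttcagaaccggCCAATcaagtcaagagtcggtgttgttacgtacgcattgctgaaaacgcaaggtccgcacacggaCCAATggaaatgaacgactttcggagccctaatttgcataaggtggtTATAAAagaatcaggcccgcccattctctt

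The series title names invasion and metastasis, so mesenchymal, epithelial, protease and adhesion genes were read as groups. Of 24 tested mesenchymal genes, 5 were higher and 15 lower, 11 of them lower by at least 2-fold, with a median of -0.70. VIM, the intermediate filament vimentin, was at 2144, 2151 and 2152 CPM in the CAR libraries and 528, 567 and 584 CPM in the Combination libraries (log2 fold change -1.94 ± 0.039, edgeR quasi-likelihood, Benjamini-Hochberg adjusted p = 4.89e-21). The groups were widely apart, and VIM was one of the 8 genes that lost most CPM. COL4A2, a collagen chain of basement membranes, and the collagen crosslinking enzyme LOX fell by 2.05 and 1.75. The transcription factor SNAI2 was at 33.9, 33.6 and 37.0 CPM in the CAR libraries and 27.8, 31.0 and 27.2 CPM in the Combination libraries and fell by only 0.28 (edgeR, Benjamini-Hochberg adjusted p = 0.000301). The 5 that rose were CCN2 (0.94), COL6A1 (0.89), CCN1 (0.84), LOXL2 (0.24) and FSTL1 (0.21). Most epithelial genes were lower as well. Of 18 tested, 3 were higher and 11 lower, with a median of -1.10. The keratins KRT80 and KRT7 fell from 156 to 26.9 CPM and from 119 to 21.4 CPM, and ESRP2, an epithelial splicing factor, fell by 3.42. Those that rose were JUP (1.71), TJP1 (0.64) and OCLN (0.22). CDH1, the gene of E-cadherin, held 0, 3 and 2 counts in the CAR libraries and 3, 3 and 0 in the Combination libraries, at or under the floor, and was not tested.

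Matrix proteases and their inhibitors moved in both directions. Of 24 tested genes of this list, 8 were higher and 12 lower, with a median of -0.30. Over all genes tested, 42.4% were higher and 43% lower. PLAU, the urokinase that activates plasminogen, was at 204, 210.2 and 204 CPM in the CAR libraries and 33.3, 35.5 and 39.4 CPM in the Combination libraries (log2 fold change -2.51 ± 0.048, edgeR quasi-likelihood, Benjamini-Hochberg adjusted p = 2.16e-21), and its receptor PLAUR fell by 1.35. MMP14, a membrane-bound collagenase, went from 302, 308 and 289 to 116, 119 and 119.9 CPM (-1.34 ± 0.038), and ADAM8 fell by 2.11. TIMP2, an inhibitor of metalloproteinases, rose from 414 to 1199 CPM (1.54 ± 0.034), and the lysosomal protease CTSB by 0.96. MMP1 had overlapping levels of 5.14, 4.37 and 4.94 and 4.84, 4.19 and 3.92 CPM and was not called (edgeR, Benjamini-Hochberg adjusted p = 0.354). MMP9 held 1 to 5 counts per CAR library and 0 to 3 per Combination library and was not tested. In the adhesion list, 7 were higher and 20 lower of 30, with a median of -0.66. ZYX, a focal adhesion protein, went from 252, 249.5 and 242 to 53.6, 56.0 and 58.1 CPM (-2.15 ± 0.044), CAV1 fell from 865 to 196 CPM (-2.14 ± 0.048), and ITGB5 and LAMB1 fell by 1.81 and 1.83. Integrins did not move as 1 block: ITGB3 and ITGA1 rose by 1.97 and 1.23. Targets of YAP and TEAD were 10 higher and 12 lower of 23, beside 42.4% and 43% of all genes, with a median of -0.16. ANKRD1 and ARHGEF17 rose by 1.34 and 1.52, while FJX1, NT5E and AXL fell by 3.04, 1.84 and 1.14. Of the 12 genes taken as typical of the line, 11 were lower; the only one higher was EGFR (0.19 ± 0.080), which was not called without Combination replicate 1.

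Among 25 AP-1 subunits and feedback genes of the ERK pathway, 7 were higher and 17 lower, with a median of -0.48. FOSL1, the AP-1 subunit FRA-1, was at 398, 387 and 408 CPM in the CAR libraries and 51.7, 59.2 and 55.4 CPM in the Combination libraries (log2 fold change -2.84 ± 0.052, edgeR quasi-likelihood, Benjamini-Hochberg adjusted p = 1.14e-21). ETV4, a transcription factor raised by ERK signalling, went from 94.5, 92.8 and 95.5 to 5.43, 5.46 and 6.73 CPM (-4.0 ± 0.081), and SPRY4 and DUSP5, which restrain that pathway, fell by 2.13 and 1.38. The AP-1 subunit JUND moved the other way, from 21.8, 20.1 and 17.0 to 166, 165 and 169.6 CPM (log2 fold change 3.08 ± 0.077, edgeR quasi-likelihood, Benjamini-Hochberg adjusted p = 1.44e-17), with JUNB (1.11). In the NF-kB list of 22 tested genes, 6 were higher and 14 lower, with a median of -0.72, or -0.53 with CSF2, at 0 counts in every Combination library, set to its bound. The cytokines IL11 and LIF, at 73.6 to 3.15 CPM and at 53.2 to 2.71 CPM, fell by 4.55 and 4.29, and the adhesion receptor ICAM1 fell by 2.57. NFKBIA, which holds NF-kB in the cytoplasm, rose from 21.8 to 49.2 CPM (1.17 ± 0.064), and SOD2 by 0.75. Of 31 interferon response genes, 7 were higher and 21 lower, 13 of them lower by at least 2-fold, with a median of -0.90. IFIT3, IFI44 and the immunoproteasome subunit PSMB8 fell by 2.5, 3.73 and 2.52. OAS1 had 0 counts in every Combination library against a mean of 0.475 CPM in CAR, at least 2.71-fold lower with the floor of 3 counts per library. Members that rose included IRF7 (2.84), IFI6 (2.76), STAT2 (1.59), IFI27 (0.59), IRF9 (0.43) and DDX58 (0.41). STAT2, which transduces the interferon signal, rose from 57.3 to 173 CPM (1.59 ± 0.046).

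Inhibitors of DNA binding, the ID proteins that block basic helix-loop-helix factors and are classical targets of BMP signalling, rose steeply. ID3 was at 4.70, 3.65 and 4.11 CPM in the CAR libraries and 142, 134 and 137 CPM in the Combination libraries (log2 fold change 5.05 ± 0.083, edgeR quasi-likelihood, Benjamini-Hochberg adjusted p = 4.02e-22). ID2 went from 0.890, 0.668 and 0.728 to 13.3, 12.8 and 13.1 CPM (4.09 ± 0.16), and ID1 from 18.2 to 287 CPM (3.98 ± 0.11). The ligand BMP4 rose from 93.2 to 288 CPM (1.63 ± 0.043) and the repressor SKI by 1.63, while the ligand TGFB2 and the activin antagonist FST fell by 1.96 and 2.40. Of 26 genes of TGF-beta and BMP signalling with the ID family, 18 were higher and 7 lower, 12 of them higher by at least 2-fold, with a median of 0.75.

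Antioxidant genes under NRF2 did not move as a block. SRXN1, which reactivates oxidised peroxiredoxins, was at 624, 589 and 596 CPM in the CAR libraries and 7036, 7057 and 6876 CPM in the Combination libraries (log2 fold change 3.54 ± 0.039, edgeR quasi-likelihood, Benjamini-Hochberg adjusted p = 1.96e-24). This was the second largest gain in CPM among all genes, after ferritin light chain. TXNRD1, the cytosolic thioredoxin reductase, went from 2196, 2223 and 2183 to 7139.5, 7109 and 6945 CPM (1.68 ± 0.035), and GSR, glutathione reductase, from 193, 191 and 187 to 779, 797 and 758 CPM (2.03 ± 0.035). GCLM, the modifier subunit of the enzyme that makes the glutathione precursor, rose from 394 to 1116 CPM (1.5 ± 0.036), and its catalytic partner GCLC by 0.46. HMOX1, heme oxygenase 1, fell over the same comparison, from 130.2, 135 and 128 to 58.1, 63.2 and 60.9 CPM (log2 fold change -1.11 ± 0.045, edgeR quasi-likelihood, Benjamini-Hochberg adjusted p = 6.68e-16). SLC7A11, the cystine transporter, fell from 582 to 168 CPM (-1.79 ± 0.11). AKR1B10, an aldo-keto reductase, held 671 counts over the CAR libraries and 14 over the Combination libraries, a ratio of 41.7 (exact 95% counting interval 24.7 to 76.6), and its log2 fold change was -5.35, or -6.53 without Combination replicate 3. Of 30 tested NRF2 targets, 17 were higher and 9 lower, with a median of 0.29, a share of higher members of 17 in 30 beside 42.4% of all genes. The letters TGACNNNGC, the core of the antioxidant response element, were present on either strand in 6 of 22 promoters of the list (27.3%) against 11.9% of all. The promoter of GCLM is shown with the match in capitals on its reverse complement (RefSeq, GRCh38.p14, 250 bases before the start).
GCLM (chr1:93909431-93909680, minus strand): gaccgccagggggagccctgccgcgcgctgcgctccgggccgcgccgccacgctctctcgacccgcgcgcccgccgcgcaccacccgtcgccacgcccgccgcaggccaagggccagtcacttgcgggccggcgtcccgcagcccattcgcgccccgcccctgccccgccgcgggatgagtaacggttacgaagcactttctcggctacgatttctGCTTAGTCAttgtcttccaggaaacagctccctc

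Ferritin, the protein shell that stores iron, rose in both subunits. FTL, the light chain, was at 6253, 6112 and 5939 CPM in the CAR libraries and 40295, 42581 and 39805 CPM in the Combination libraries (log2 fold change 2.74 ± 0.058, edgeR quasi-likelihood, Benjamini-Hochberg adjusted p = 3.67e-18). It took 0.608% to 0.640% of the counts of a CAR library and 3.71% to 3.92% of those of a Combination library. FTH1, the heavy chain, went from 6815, 6898 and 6750.3 to 12348, 13075 and 11724 CPM (0.86 ± 0.052). SLC40A1, the iron exporter ferroportin, rose from 8.99 to 29.3 CPM (1.70 ± 0.068), NCOA4, the receptor that carries ferritin to the lysosome, by 0.63, and the importer SLC39A14 fell by 1.17. Reads of ferritin genes may be shared with their processed pseudogenes. Over the whole iron list of 18, 9 were higher and 7 lower, beside 42.4% and 43% of all genes. The list median of 0.09 changed sign with total count scaling (-0.06).

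Lysosome and autophagy genes rose as a group. Of 31 tested, 26 were higher and 4 lower, 16 of them higher by at least 2-fold (beside 15.6% of all genes), with a median of 1.01. NEU1, the lysosomal sialidase, was at 89.5, 86.7 and 84.6 CPM in the CAR libraries and 587, 588 and 567 CPM in the Combination libraries (log2 fold change 2.74 ± 0.048, edgeR quasi-likelihood, Benjamini-Hochberg adjusted p = 7.85e-22). SQSTM1, the autophagy receptor p62, went from 916, 907 and 863 to 3259, 3346 and 3199.7 CPM (log2 fold change 1.87 ± 0.040, edgeR quasi-likelihood, Benjamini-Hochberg adjusted p = 1.06e-20). CTSA, a lysosomal carboxypeptidase, and MAP1LC3B, the coat protein of the autophagosome, rose by 1.72 and 1.77, MCOLN1, a calcium channel of the lysosome, from 21.6 to 119 CPM (2.46 ± 0.060), and the proton pump subunits ATP6V1A and ATP6V0D1 by 1.73 and 1.67. The transcription factors known for driving these genes did not rise at the RNA level: TFEB was at 3.46, 4.01 and 4.53 and 1.89, 1.98 and 1.58 CPM (-1.13 ± 0.19), MITF fell by 1.52, and TFE3 was not called (0.05 ± 0.039). The other lower members were ATG5 (-0.25) and CTSZ (-0.09). TCACGTGA, the core of the CLEAR element to which TFEB and its relatives bind, was present in 5 of 24 promoters of the list (20.8%) against 1.68% of all; the letters contain the E-box CACGTG. The promoter of MCOLN1, which holds 2 of them, is shown with both in capitals (RefSeq, GRCh38.p14, 250 bases before the start).
MCOLN1 (chr19:7522374-7522623, plus strand): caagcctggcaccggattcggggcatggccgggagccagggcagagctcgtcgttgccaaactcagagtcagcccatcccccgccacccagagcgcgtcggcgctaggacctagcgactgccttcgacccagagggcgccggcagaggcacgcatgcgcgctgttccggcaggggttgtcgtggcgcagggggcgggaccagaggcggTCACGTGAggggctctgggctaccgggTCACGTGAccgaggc

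Stress and metabolic genes moved in both directions, and so did all genes tested, with 42.4% higher and 43% lower. In the ATF4 and unfolded protein list of 28, 11 were higher and 14 lower, with a median of -0.33. ATF4 fell from 324 to 151 CPM (-1.10 ± 0.049), with its targets TRIB3 and SHMT2 (-2.98 and -1.32) and the unfolded protein factor XBP1 (-1.60), while ASNS, asparagine synthetase and also a target of ATF4, went from 61.1, 70.1 and 64.6 to 289, 296 and 270.0 CPM (log2 fold change 2.13 ± 0.054, edgeR quasi-likelihood, Benjamini-Hochberg adjusted p = 2.21e-19). SLC3A2, the heavy chain of amino acid transporters, rose by 1.18. Of 23 heat shock proteins and co-chaperones, 8 were higher and 12 lower, with a median of -0.18. HSPA8, the constitutive HSP70, went from 3540.0, 3633 and 3674 to 1380.0, 1393 and 1413 CPM (-1.37 ± 0.032), and the chaperonin HSPD1 fell by 1.23. The inducible copies HSPA1A and HSPA1B, whose reads can be split between them, rose by 0.87 and 1.25. Hypoxia and glycolysis genes were mostly higher: of 34, 26 were higher and 5 lower, with a median of 0.54. ADM, the vasodilator peptide adrenomedullin, went from 48.2, 43.3 and 41.9 to 382, 397 and 371 CPM (log2 fold change 3.11 ± 0.059, edgeR quasi-likelihood, Benjamini-Hochberg adjusted p = 9.02e-21), and P4HA1, a collagen hydroxylase, and NDRG1 rose by 1.97 and 1.45. The glycolytic enzymes PKM, LDHA and GAPDH rose from 2691 to 5772 CPM, 2123 to 4150.1 CPM and 4522 to 7884 CPM. VEGFA and CA9, both hypoxia targets, went down, VEGFA from 131 to 34.4 CPM (-1.93 ± 0.054) and CA9 from 5.01 to 0.235 CPM, with PFKFB4, GPI and PFKP. Sterol and fatty acid genes were 16 higher and 9 lower of 28, with a median of 0.21: INSIG1, a brake on sterol synthesis, rose from 290.4 to 1034 CPM (1.83 ± 0.033), and FASN, fatty acid synthase, by 0.88. Nuclear-encoded subunits of oxidative phosphorylation were 12 higher and 10 lower of 28, and their median of 0.07 changed sign with total count scaling (-0.08).

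The 12 largest rises and 12 largest falls (not all named here) among genes that reached 5 CPM included many genes with few counts in 1 group. NECAB2, which codes for a neuronal calcium-binding protein, was at 1.93, 1.08 and 1.3 CPM in the CAR libraries and 180.4, 172 and 174 CPM in the Combination libraries (log2 fold change 6.92 ± 0.10, edgeR quasi-likelihood, Benjamini-Hochberg adjusted p = 9.23e-23). It lies on chromosome 16 (GRCh38, 83968632 to 84002776), 2300 bp after the end of OSGIN1 on the same strand. OSGIN1, an NRF2 target, rose over the same libraries from 118, 108 and 105 to 550.2, 587 and 569 CPM (2.37 ± 0.048), and its part in the reads listed for NECAB2 was not tested. Among the other rises, EFR3B, a scaffold of a lipid kinase at the plasma membrane, was at 2.03, 2.26 and 1.98 CPM in the CAR libraries and 94.1, 94.5 and 95.1 CPM in the Combination libraries (log2 fold change 5.50 ± 0.087, edgeR quasi-likelihood, Benjamini-Hochberg adjusted p = 2.87e-22), MAP1A and TPPP, which bind microtubules, rose by 5.22 and 5.23, BSN, a scaffold of the presynaptic zone, by 5.30, and the serpin SERPINI1 by 4.74. VWA5B2 held 3 counts over the CAR libraries and 301 over the Combination libraries, a ratio of 115 (exact 95% counting interval 39.1 to 563), and its log2 fold change went from 6.67 to 7.52 without CAR replicate 2. The unconventional myosin MYO1D and the proteoglycan GPC5 rose by 4.82 and 4.92.

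Among the falls, HAS2, the synthase of hyaluronan in the matrix around cells, held 599 counts over the CAR libraries and 8 over the Combination libraries, a ratio of 65.1 (exact 95% counting interval 32.8 to 151). TESMIN, a gene of the germ line, held 372 and 4 counts, a ratio of 80.9 (31.3 to 298). The inflammasome sensor NLRP3 held 575 and 13 counts, and ANGPT1, a ligand of the endothelial receptor TIE2, 308 and 7. Genes with more counts behind them were SLCO4A1, an organic anion transporter, at 35.2, 34.4 and 31.4 CPM in the CAR libraries and 0.709, 0.639 and 0.820 CPM in the Combination libraries (log2 fold change -5.53 ± 0.13, edgeR quasi-likelihood, Benjamini-Hochberg adjusted p = 2.86e-20), RIMS2, a presynaptic protein, which fell by 5.43, TMEM71, by 5.46, and the adhesion molecule CLMP, by 5.36, or by 5.95 without Combination replicate 3. INSYN2B fell by 5.24. The cadherin FAT3, which fell by 5.49, had fewer counts, 328 over the CAR libraries and 6 over the Combination libraries. Its ratio was 47.5 (exact 95% counting interval 21.6 to 130). The genes that lost most CPM included abundant genes of the cytoskeleton. ACTB went from 6263, 6305 and 6259.9 to 4588, 4732 and 4586 CPM (-0.44 ± 0.036), TUBB fell from 3327 to 1175 CPM (-1.5 ± 0.032) and TUBA1B from 1732 to 401 CPM (-2.11 ± 0.040), and reads of actin and tubulin genes can be shared with their near copies. FLNA, the actin crosslinker filamin A, rose from 2214 to 4247 CPM (0.94 ± 0.052).

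**Figure D3:**
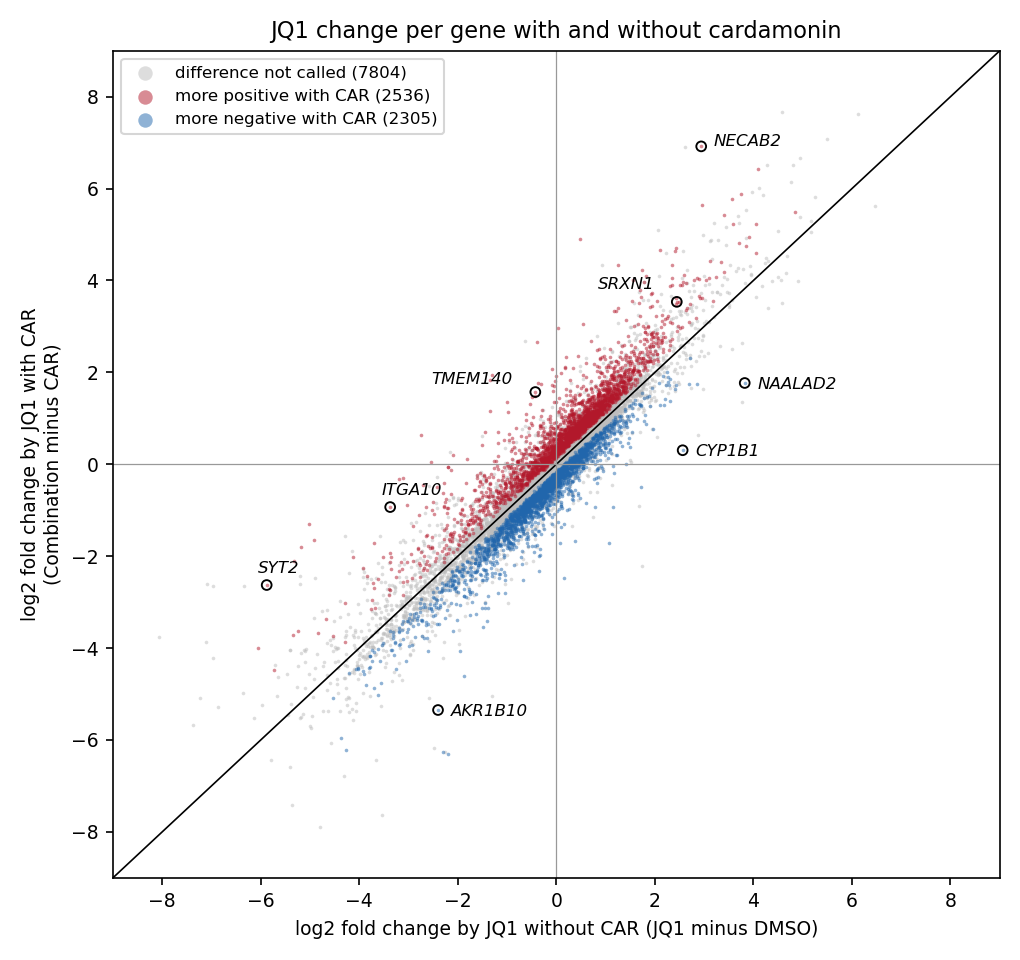
Each point is 1 of the 12645 tested genes, placed by the log2 fold change with JQ1 without cardamonin (horizontal axis, JQ1 minus DMSO) and with it (vertical axis, Combination minus CAR), with the line of equal change in black. Red and blue mark the 2536 and 2305 genes whose change was called more positive or more negative with cardamonin; the circled genes are named in the text.

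Most of what JQ1 did on top of cardamonin it also did without it. These 2 comparisons share no library. In JQ1 minus DMSO, 5247 genes were higher (41.5%) and 5333 lower (42.2%) by edgeR's quasi-likelihood test. Of the 10800 genes called in Combination minus CAR, 4692 were higher and 4757 lower in both, which is 87.5%. Across all genes tested the log2 fold changes had a Pearson correlation of 0.932 and a Spearman correlation of 0.933, a description only, since genes are not independent replicates. Of the 1970 genes higher by at least 2-fold with cardamonin, 1307 were so without it, where there were 1485 in all. Of the 2518 lower by at least 2-fold, 2030 were so without it, where there were 2303. HEXIM1 rose by 2.07 ± 0.041 without cardamonin and by 2.25 ± 0.042 with it, and CCNB1 changed by -3.66 ± 0.059 and -3.50 ± 0.056, a difference between the backgrounds of 0.16 ± 0.083 that was not called. The difference itself was tested in the same model. The change with JQ1 was more positive with cardamonin in 2536 genes (20.1%) and more negative in 2305 (18.2%), by at least 2-fold in 276 and 126. Most of these differences were small, with a median absolute value of 0.23 over all genes. Among genes called in the same direction in both backgrounds with the difference called, the change was larger with cardamonin in 2729 and smaller in 808. DMSO replicate 3 stood apart from the other DMSO libraries (chi-square per degree of freedom 10.6 and 12.6, against 1.66 to 2.24 between CAR or Combination replicates), and without it the counts were 3027 and 2837.

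By gene group, the counts of called differences between the backgrounds are read beside the 20.1% and 18.2% of all genes. Hypoxia and glycolysis genes were more positive with cardamonin in 25 of 34 and more negative in 3. With JQ1 alone their median was 0.17, with 19 higher and 8 lower, and with JQ1 on top of cardamonin it was 0.54. LDHA, lactate dehydrogenase, was at a mean of 1877 CPM in DMSO and 2186 CPM in JQ1, and 2123 and 4150.1 CPM in CAR and Combination, a difference between the changes of 0.75 ± 0.045. For the mitophagy receptor BNIP3 the 4 means in that order were 179, 233, 213 and 562 CPM, and the difference was 1.02 ± 0.055. Lysosome and autophagy genes were more positive in 16 of 31, NEU1 by 0.67 ± 0.066 and SQSTM1 by 0.72 ± 0.055. Matrix proteases and their inhibitors were more positive in 11 of 24, with medians of -0.34 with JQ1 alone and -0.30 on top of cardamonin. Sterol genes were more positive in 13 of 28. In the NF-kB list 8 of 22 were more positive and 0 more negative. Most of that list was lower in both backgrounds, 16 with JQ1 alone and 14 on top of cardamonin. A more positive change there can be a smaller fall, as for ICAM1 (-3.12 and -2.57). Ribosomal proteins were more negative in 24 of 30, their median being -0.05 with JQ1 alone, where 7 were higher and 13 lower, and -0.30 with cardamonin. RPS18 was at a mean of 1184 CPM in DMSO and 1132 CPM in JQ1, but 1497 and 1085 CPM in CAR and Combination (-0.40 ± 0.053). Ribosome biogenesis genes were more negative in 17 of 28 and heat shock genes in 14 of 23, HSPA8 by -0.52 ± 0.044. HSPA8 was at a mean of 2520 CPM in DMSO and 1394 CPM in JQ1, and 3616 and 1395 CPM in CAR and Combination. For MYBBP1A, of ribosome biogenesis, the 4 means in that order were 82.4, 46.0, 135 and 49.2 CPM. In both genes the CAR mean was above the DMSO mean, and the JQ1 and Combination means were close. Mitotic genes were more negative in 13 of 30 and more positive in 0. Without DMSO replicate 3 the counts were 27 of 34 for hypoxia and glycolysis, 17 of 31 for the lysosome, 30 of 30 for ribosomal proteins, 23 of 28 for ribosome biogenesis and 16 of 23 for heat shock.

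**Figure D4:**
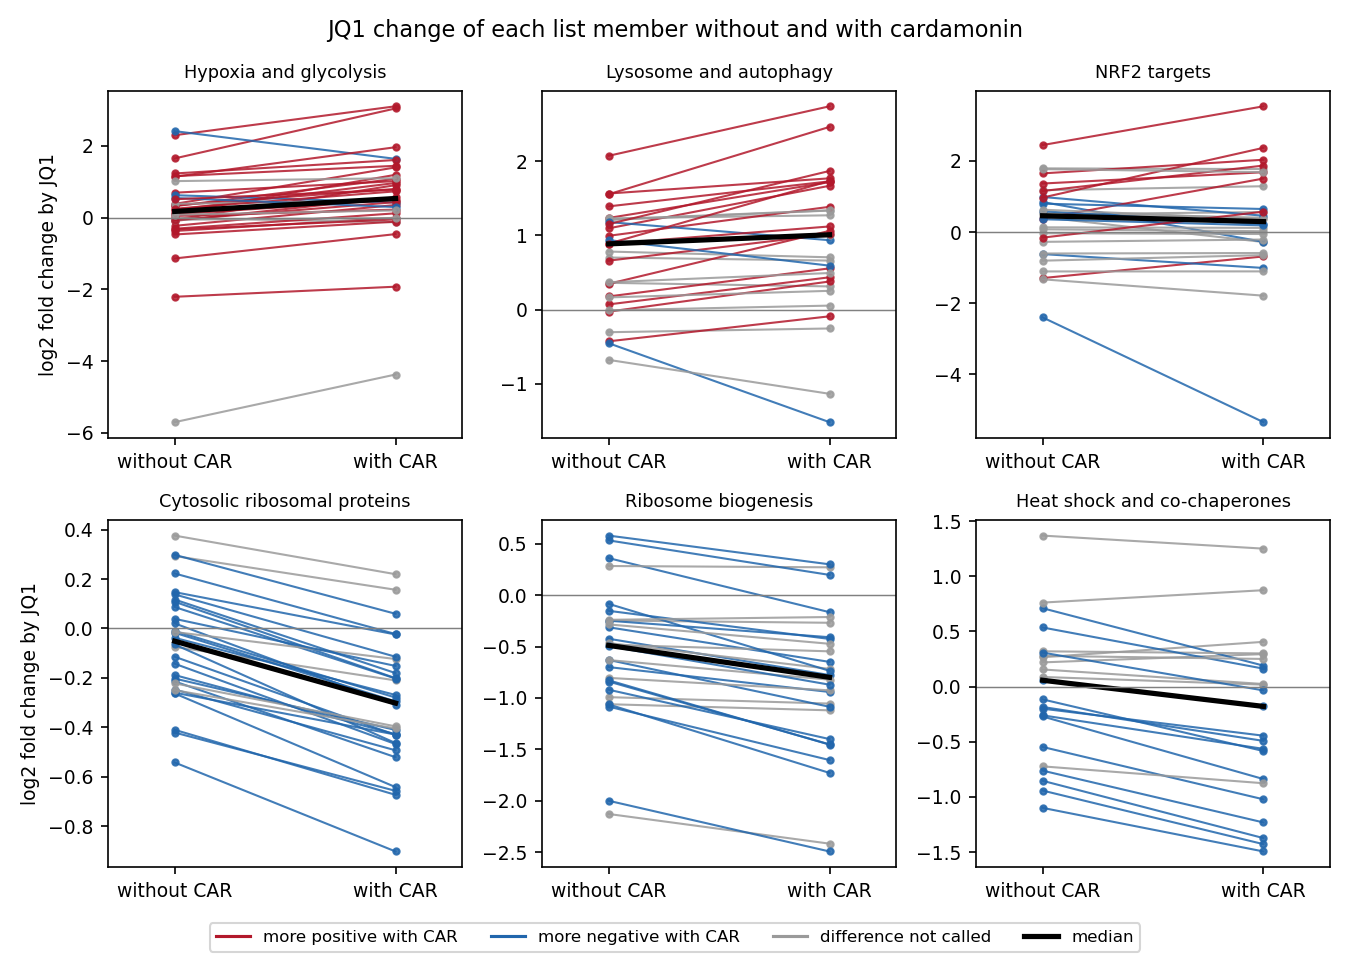
Log2 fold change with JQ1 (vertical axis, scaled separately in each panel) without and with cardamonin for each tested member of 6 lists, joined by a line, with the median in black. Red and blue lines were called more positive and more negative with cardamonin; 25 of 34 hypoxia and glycolysis genes are red and 24 of 30 ribosomal protein genes are blue.

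Single genes set the extremes of this difference. NECAB2 had means of 1.42 CPM in DMSO, 11 in JQ1, 1.44 in CAR and 175 in Combination, a difference of 3.98 ± 0.28 between the log2 changes (edgeR, Benjamini-Hochberg adjusted p = 1.18e-09). OSGIN1, its neighbour, had means of 25.2 CPM in DMSO, 49.4 in JQ1, 110.2 in CAR and 569 in Combination (1.40 ± 0.077), and SRXN1 173 CPM in DMSO, 944 in JQ1, 603 in CAR and 6989 in Combination (1.09 ± 0.052). AHRR, the repressor of the aryl hydrocarbon receptor, had means of 1.58 CPM in DMSO, 5.11 in JQ1, 0.691 in CAR and 9.69 in Combination (2.10 ± 0.33). CYP1B1, a cytochrome P450 known as a target of that receptor, showed the reverse: its means were 29 CPM in DMSO, 172 in JQ1, 12 in CAR and 14.8 in Combination, so that it rose by 2.56 ± 0.057 without cardamonin and by 0.31 ± 0.086 with it, a difference of -2.26 ± 0.10 (edgeR, Benjamini-Hochberg adjusted p = 4.82e-12). In CYP1B1 the smaller rise on top of cardamonin was not called with total count scaling (edgeR adjusted p = 0.0799). NAALAD2 rose less with cardamonin (-2.05 ± 0.39). CYP2E1, one of the liver genes, had levels of 0.544, 0.205 and 0.416 CPM in CAR and 12.8, 9.65 and 7.08 CPM in Combination, highest in the library with ALB; the other 2 Combination libraries also lay above every CAR library, and the difference between backgrounds was 2.23 ± 0.55.

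Several genes with a more positive change with cardamonin had a lower mean in CAR than in DMSO, so that the fall with JQ1 started from a lower level. ITGA10, an integrin chain, had means of 11.7 CPM in DMSO, 1.13 in JQ1, 1.68 in CAR and 0.880 in Combination (2.44 ± 0.36), CEMIP, a hyaluronan-binding protein, 31.2 CPM in DMSO, 1.77 in JQ1, 4.44 in CAR and 1.10 in Combination (2.12 ± 0.38), and SYT2, a synaptotagmin, 11.3 CPM in DMSO, 0.180 in JQ1, 1.12 in CAR and 0.176 in Combination (3.25 ± 0.87). For SYT2 the JQ1 and Combination means are near the floor, the difference was 4.85 without JQ1 replicate 1, and it was not called without Combination replicate 3 (edgeR adjusted p = 0.0804). FGF18, a growth factor, had a larger log2 rise with cardamonin (2.20 ± 0.47). That difference was 2.85 without CAR replicate 1, with a log2 fold change of 6.42 in Combination minus CAR in place of 5.77. FGF18 had means of 0.537 CPM in DMSO, 6.45 in JQ1 and 0.0839 in CAR, and its Combination mean was below its JQ1 mean. Every CAR library was at or under the floor of 3 counts at FGF18, so the size of its difference is uncertain. Larger falls with cardamonin were seen for BATF3, an AP-1 family factor, with means of 7.71 CPM in DMSO, 2.74 in JQ1, 9.86 in CAR and 0.839 in Combination (-2.05 ± 0.24), THSD1 (-1.84 ± 0.19), the BMP receptor BMPR1B (-1.75 ± 0.30) and the keratins KRT81 (-1.63 ± 0.20) and KRT7 (-1.31 ± 0.068). For AKR1B10 the difference of -2.95 ± 1.2 was -4.12 without Combination replicate 3, and its call was lost in 11 alternatives; for TESMIN (-1.95 ± 0.70) it was lost in 4. AKR1B10 had means of 0.420 CPM in DMSO, 0.0734 in JQ1, 11.4 in CAR and 0.274 in Combination. Every JQ1 library was under the floor of 3 counts at AKR1B10. The size of the AKR1B10 fall without cardamonin, and so of the difference, is therefore uncertain.

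Some genes were called in opposite directions in the 2 backgrounds: 110 were higher with JQ1 in the presence of cardamonin and lower in its absence, and 106 the reverse. TMEM140 was at 5.64, 5.29 and 5.10 CPM in the CAR libraries and 16.0, 15.8 and 16.0 CPM in the Combination libraries and had means of 7.45 CPM in DMSO and 5.53 CPM in JQ1 (2.0 ± 0.15). HLA-DMA, which helps load class II molecules, rose by 0.58 ± 0.12 with cardamonin and changed by -0.90 ± 0.11 without it; its annotated span on chromosome 6 (32948613 to 32969094) overlaps the start of BRD2 (32968660) on the other strand. GJA1, the gap junction protein connexin 43, fell from 43.9 to 24.7 CPM with cardamonin and went from 23.0 to 34.6 CPM without it (-1.42 ± 0.10). AKR1C3 and the cofactor ZFPM2 also fell with cardamonin (-0.28 ± 0.070 and -0.98 ± 0.13) and rose without it (0.84 ± 0.073 and 0.25 ± 0.11). In each of these genes the 3 Combination libraries lay outside the range of the 3 CAR libraries. The same held for 87.4% of all genes tested, and these genes were picked among those called, so it does not set them apart.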

How the data were processed

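RNA of 12 MDA-MB-231 libraries (DMSO, CAR, JQ1 and Combination, 3 each) was sequenced from poly(A)-selected, stranded libraries, per the labels' protocols. The authors deposited whole-number read counts per gene symbol, 1 table per library, not normalized. Tools listed in the submitters' processing notes are HISAT2, HTSeq and Trimmomatic, with hg38 as the build. No source used here gives the annotation or the strand setting of the counting, so reads of antisense partners cannot be told apart.

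The deposited counts were fitted with edgeR 4.0.16 under R 4.3.3. The filterByExpr step, given the groups, a minimum count of 10 and a minimum total of 15, kept 12645 of 16384 genes. Libraries were scaled with TMM factors, and a robust quasi-likelihood model with 1 coefficient per group was fitted to all 12 libraries, with 8 residual degrees of freedom and a biological coefficient of variation, common to all genes, of 0.0408. The contrasts were Combination minus CAR, JQ1 minus DMSO and the difference between these, with Benjamini-Hochberg adjustment over all genes tested and calls at an adjusted p under 0.05. Log2 fold changes are given ± SE. The floor was 3 counts, and counting intervals are exact at the 95% level and cover counting error only. The tests were run on simulated data with known changes beforehand. In that simulation a small part of the genes changed, equally up and down, in the Combination group alone and at a constant spread. It does not show how the calls behave when most genes change, as they did here.

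The members and gene lists were chosen with earlier results of these data known. Named genes were the 12 largest changes each way in Combination minus CAR (at least 5 CPM in the higher group, replicates that did not overlap, same call without Combination replicate 1), up to 4 genes of smallest adjusted p per list and up to 2 against its direction, 16 fixed genes, the 8 largest gains and losses in CPM, and the 8 largest differences between backgrounds each way with 3 each way among genes called in opposite directions. Some genes that this rule names are not reported here. Other list members given by name were chosen after their values were seen. Alternatives were DESeq2 1.42.0, other scalings and filters, fewer libraries, a replicate block and the table without liver genes. Positions come from GENCODE v29 on GRCh38, matched by symbol for 12587 of 12645 genes, and promoters from RefSeq on GRCh38.p14, matched for 10253.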

Additional observations from a re-analysis of the deposited data

Results flagged for a closer look

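The values below are differences between 2 log2 fold changes, the change with JQ1 in the presence of cardamonin minus the change in its absence, and each gene was picked out because edgeR's quasi-likelihood test called that difference and it was at least 2-fold. Rises with JQ1 that were larger with cardamonin were found in NECAB2 (3.98), FGF18 (2.20), CYP2E1 (2.23), AHRR (2.10), MAP1A (1.64), OSGIN1 (1.40), JUP (1.29), ASNS (1.25), TPPP (1.18), MYO1D (1.12), MXD4 (1.10), SRXN1 (1.09) and H2BC21 (1.04). Some of these rises started from a lower level in CAR than in DMSO. JUP had means of 13.5 CPM in DMSO, 18.1 in JQ1, 5.06 in CAR and 16.6 in Combination. In that order MXD4 had 54.6, 241, 26.2 and 249 CPM. For ASNS, which did not start lower in CAR, they were 52.7, 96.7, 65.3 and 285 CPM. For FGF18 every CAR library was at or under the floor, so the size of its difference is uncertain. Falls that were smaller with cardamonin were found in SYT2 (3.25), ITGA10 (2.44) and CEMIP (2.12). For SYT2 the JQ1 and Combination means are near the floor. A rise with cardamonin against a fall without it was found in TMEM140 (2.0) and HLA-DMA (1.47).

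Falls that were larger with cardamonin were found in AKR1B10 (-2.95), BATF3 (-2.05), TESMIN (-1.95), THSD1 (-1.84), BMPR1B (-1.75), KRT81 (-1.63), HAS2 (-1.59), KRT7 (-1.31), RRM2 (-1.22) and MITF (-1.06). For AKR1B10 every JQ1 library was under the floor, so the size of that difference is uncertain. HAS2 and TESMIN held only 8 and 4 counts over the Combination libraries, near or under the floor, so the sizes of their differences are uncertain too. HAS2 had means of 6.67 CPM in DMSO, 0.314 in JQ1, 10.2 in CAR and 0.156 in Combination. Rises that were smaller with cardamonin were found in CYP1B1 (-2.26) and NAALAD2 (-2.05). A fall with cardamonin against a rise without it was found in GJA1 (-1.42), ZFPM2 (-1.23) and AKR1C3 (-1.12).

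Combination replicate 1 held 1429 counts of ALB, a liver gene that no comparison used, where the other 11 libraries held 4 to 10.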

How the results depend on the processing

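All 8 counts of called genes stayed within 1.5 times of their values in the 150 values computed under the alternatives. Leaving out 1 library gave 5253 to 5538 genes higher and 5325 to 5570 lower in Combination minus CAR. Total count scaling gave 4652 and 6167, and DESeq2 5252 and 5322. That scaling, which shifted the median of all genes by -0.14, reversed 3 values: the median log2 fold change was -0.056 in the iron list and -0.076 in the oxidative phosphorylation list, and BRD3 was at -0.12 (edgeR adjusted p = 0.0398). Another 69 list medians moved by more than the spread between replicates without a change of sign, 28 of them with total count scaling, by up to 0.14. Of the other 41, the liver list of 3 genes went from 4.34 to 1.03 without Combination replicate 1, and 40 moved by up to 0.28, 11 of them by more than 0.1; the NF-kB median was -0.44 when the fit held only the CAR and Combination libraries. Same-numbered CAR and Combination libraries did not deviate together (correlations -0.142, -0.0293 and -0.0724 over 6155 genes), so the numbers were not taken as pairs. With the replicate number as a block, 5354 genes were higher and 5432 lower, and the change with JQ1 differed between backgrounds in 2502 and 2283. MYC was not called with the block (edgeR adjusted p = 0.0614), nor was the difference between backgrounds of AKR1B10 (adjusted p = 0.0629). Calls of named genes were lost in 16 cases, 11 of them MYC, and called differences between backgrounds in 17, 11 of them AKR1B10; the cause was not tested. Depth limits genes near the floor of 3 counts, such as CDH1 and MMP9, which were not compared.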

Other observations

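Changes were also read by the structure and level of the genes (GENCODE v29 on GRCh38, 12587 genes with a position), as a description with no test. The 438 genes whose longest transcript has 1 exon were higher in 48.6% and lower in 32.0%, against 42.4% and 43.1% of all genes with a position. The 929 genes that span at least 200000 bp were higher in 37.7% and lower in 46.6%, and 26.9% of them were called lower by at least 2-fold, against 19.9% of all. With genes split by span into 4 equal groups, the median log2 fold change lay between -0.02 and 0.01. With genes split by mean level into 4 equal groups, the group of highest level was higher in 52.7% and lower in 36.6%, and the group of lowest level was higher in 32.8% and lower in 44.9%.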
